A study of Mus musculus with 12 samples.

Results

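Integrins and laminins are the receptors and the matrix proteins that fix cells to basement membranes. An integrin is a pair of an alpha and a beta chain that spans the cell membrane, binds matrix outside the cell and is tied to the actin cytoskeleton inside it. A laminin is a trimer of an alpha, a beta and a gamma chain that builds the basement membrane sheet. In the bladder, such sheets lie under the urothelium and around smooth muscle cells, nerves and vessels. The genes described here are those whose symbol names an integrin alpha chain, an integrin beta chain or a laminin chain, with Itgbl1 left out. They number 34 of the 18193 genes that have a probe set with 1 gene symbol, and comprise 16 alpha chains, 8 beta chains and 10 laminin chains. Where a gene had several such probe sets, the one of highest mean intensity stood for it. The 34 genes had 73 of the 45037 probe sets that are not controls. Itga11 and Itgad had no probe set under their symbol alone and were not analysed here.

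RNA came from whole bladders of FVB/N mice on postnatal day 1, with each sample on 1 one-colour Affymetrix array and no pooling. The groups were SMGA/EGFP (3 arrays), from mice carrying a green fluorescent protein driven by the smooth muscle gamma actin (Actg2) promoter, SMAA/EYFP (3 arrays), from mice carrying a yellow fluorescent protein driven by the smooth muscle alpha actin (Acta2) promoter, and wild type (6 arrays). The question was what expression of a transgene does to the bladder's expression profile. The transgenes were carried by the sires, the dams were FVB/N, and all animals were male per the labels. The labels do not say whether arrays of a group came from separate litters, so p-values measure the spread between these samples. Whole bladder also means that fewer cells of a type and less RNA per cell cannot be told apart.

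Levels are log2(intensity + 16) after quantile normalization, so 1 unit is close to a 2-fold difference except at low intensity. The bladder markers Upk1a, Upk2, Acta2, Actg2 and Myh11 were at log2 12.49 or above on every array. Median intensity per array lay between 229.39 and 305.94 as deposited. The database record numbers of the arrays form 2 runs of 6, and each run holds 3 wild-type arrays. SMGA/EGFP lies wholly in the first run and SMAA/EYFP wholly in the second. The labels do not say what the runs stand for, so the transgenic groups are also compared with the wild type of their own run. Wild type 4 is labelled male, yet Xist, the X-inactivating RNA, stood at an intensity of 29604 there and at 80.1 to 250 elsewhere, and the Y-linked Kdm5d at 28.0 there and at 938 to 1465 elsewhere. The counts of integrin and laminin genes past the threshold given below are the same without that array.

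Of the 34 genes, 29 were above the filter on mean level (log2 8.02, the median of all probe sets) and were tested: 12 alpha chains, all 8 beta chains and 9 laminin chains. The 5 not tested were Itga2, the alpha chain of a collagen receptor, Lamc3, a laminin gamma chain, and the leukocyte alpha chains Itgae, Itgam and Itgax. Over all 12 arrays Itga2 ran from an intensity of 88.0 to 252, Lamc3 from 134 to 243, and Itgae from 57.8 to 191. Itgam ran from 3.09 to 111.5 and Itgax from 5.01 to 136.

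None of the 29 tested integrin and laminin genes differed between SMGA/EGFP and wild type past the threshold (limma, Benjamini-Hochberg adjusted p of 0.05 over 22518 probe sets), where 14 probe sets, 0.0622% of all tested, did. At an unadjusted p under 0.05 there were 4 of 29, 2 of them higher and 2 lower, beside 6.92% of all probe sets (2.77% higher, 4.16% lower). The median log2 difference of the 29 was -0.03, beside -0.01 over all probe sets tested, with 14 genes above wild type and 15 below. For 25 of the 29 the 95% interval of the difference lay within 2-fold either way. In SMAA/EYFP against wild type, 0 of 29 passed, as did 0 of all probe sets (0%). There 2 of 29, Itgb6 higher and Lamb2 lower, had an unadjusted p under 0.05 beside 4.81% of all. Itgb6, with a wild-type mean of 7.75, was above the filter only through the transgenic arrays. The median difference was 0.00 for the 29 and for all probe sets, and the interval lay within 2-fold for 27 of 29.

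**Figure D1:**
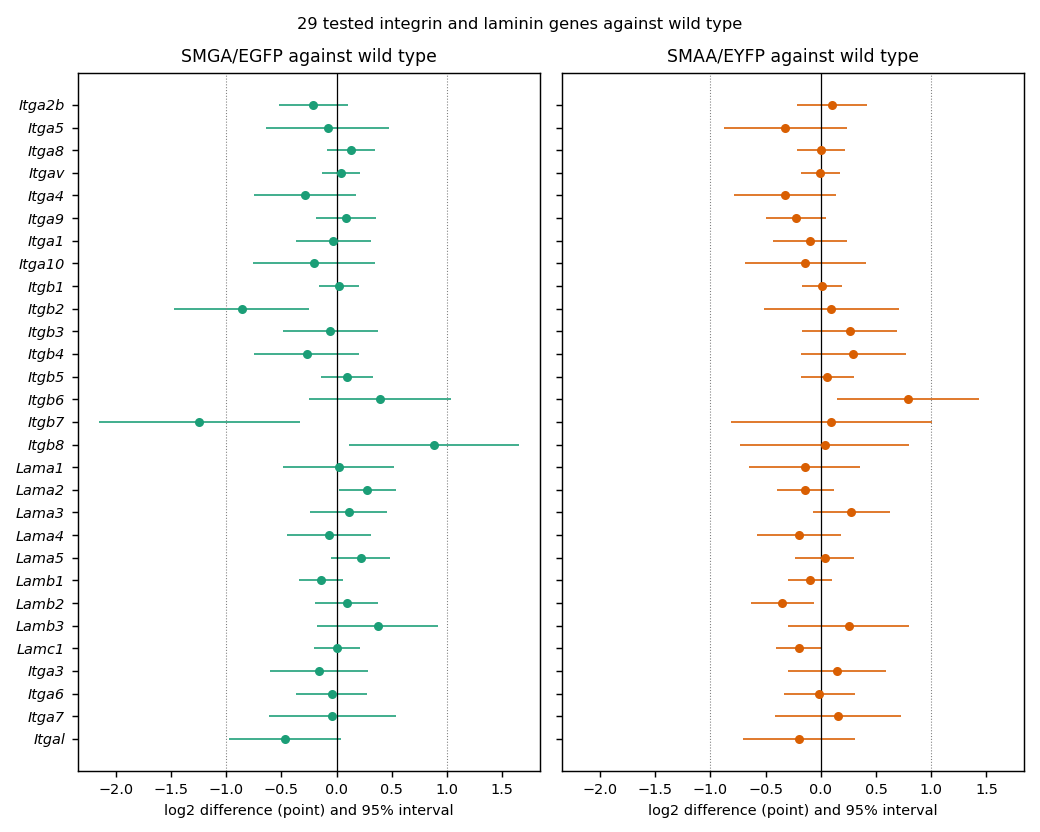
Log2 difference (horizontal axis, points) from wild type of the 29 tested genes (vertical axis) in SMGA/EGFP (left, 3 arrays) and SMAA/EYFP (right, 3 arrays) against 6 wild-type arrays, with 95% intervals as bars and dotted lines at 2-fold. The points lie between -1.24 and 0.89 on the left and between -0.35 and 0.79 on the right, and the widest intervals belong to Itgb7, Itgb8, Itgb6 and Itgb2.

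Between SMGA/EGFP and SMAA/EYFP, 0 of 29 passed, where 18 probe sets (0.0799%) did. At an unadjusted p under 0.05 there were 5 of 29 beside 9.31% of all probe sets. For 6 of 29 the arrays of both groups did not overlap, beside 14.5% of all probe sets, and 4 of these 6 were higher in SMGA/EGFP. The transgenic groups averaged and set against wild type gave 0 of 29 past the threshold, with 1 probe set (0.00444%) past it in the whole table. Blocking on the record-number run, 0 of 29 passed in each of these 4 comparisons, beside 0.0444%, 0%, 0.00888% and 0.00444% of all probe sets in the order given. The counts at an unadjusted p under 0.05 moved with the block. They became 2 of 29 for SMGA/EGFP against wild type (2.99% of all probe sets), 5 for SMAA/EYFP against wild type (4.39%) and 2 between the transgenic groups (2.7%). Leaving out single arrays gave 2 to 5, 0 to 4 and 1 to 7 in the same order, with 2 and 1 for the first and last without SMGA/EGFP 1, and 0 for the second without SMAA/EYFP 3. The contrasts of SMGA/EGFP and SMAA/EYFP with wild type share the same 6 control arrays.

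Among the 29 tested genes, those that varied most over the 12 arrays were 4 beta chains. The SD of log2 values was 0.85 for Itgb7, 0.67 for Itgb8, 0.56 for Itgb2 and 0.53 for Itgb6, against a median of 0.28 over the 29 and of 0.24 over all probe sets tested. These SDs are not matched for level. The mean levels were 8.16, 9.41, 8.20 and 8.05 in that order, so Itgb7, Itgb2 and Itgb6 lay close above the filter of 8.02. Itgb1 and Itgav, given next, were at 14.41 and 14.17. Itgb1, the common beta chain of most matrix receptors, was among the steadiest. It measured 14.48, 14.47 and 14.31 in SMGA/EGFP and 14.50, 14.36 and 14.38 in SMAA/EYFP, and its wild-type arrays had a lowest value of 14.26, a median of 14.35 and a highest of 14.66. The 3 groups overlapped, and the SD over the 12 arrays was 0.12. The difference from wild type was 0.02 ± 0.08 (SE) in SMGA/EGFP and 0.01 ± 0.08 in SMAA/EYFP. Itgav, the alpha chain of receptors for the RGD motif of fibronectin and vitronectin, had the smallest SD, 0.11.

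Itgb2 is the beta chain of leukocyte integrins. It measured 7.96, 7.72 and 6.91 in SMGA/EGFP and 8.71, 8.19 and 8.54 in SMAA/EYFP, while wild type had a lowest value of 7.63, a median of 8.49 and a highest of 8.74. All SMGA/EGFP arrays lay below all SMAA/EYFP arrays, and 1 wild-type array lay among those of SMGA/EGFP. The difference between SMGA/EGFP and wild type was -0.86 ± 0.28 (SE), 1.81-fold lower, at an unadjusted limma p of 0.0094 and a limma adjusted p of 0.678. Against the wild type of the same run it was -0.77 ± 0.39, and without SMGA/EGFP 3 it was -0.55. Against SMAA/EYFP it was -0.95 ± 0.33 (limma adjusted p = 0.454).

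Itgb7 pairs with Itga4 or Itgae on lymphocytes and mast cells. Its levels were 6.05, 8.50 and 7.07 in SMGA/EGFP, 8.81, 7.77 and 9.05 in SMAA/EYFP, and 8.19 at the lowest, 8.39 at the median and 8.97 at the highest in wild type. SMGA/EGFP 2 stood with the wild-type arrays and the other SMGA/EGFP arrays below them. The difference from wild type was -1.24 ± 0.42 (SE), 2.37-fold lower (limma adjusted p = 0.678). Leaving out single arrays moved it between -1.89 and -0.66, the larger difference without SMGA/EGFP 2 and the smaller without SMGA/EGFP 1. In SMAA/EYFP the difference from wild type was 0.10 ± 0.42. Itgal, the leukocyte alpha chain that pairs with Itgb2, measured 8.04, 7.74 and 7.85 in SMGA/EGFP and 8.30, 8.19 and 7.95 in SMAA/EYFP, with 7.66, 8.48 and 8.69 as the lowest, median and highest of wild type. All 3 groups overlapped. The difference between SMGA/EGFP and wild type was -0.47 ± 0.24 (limma adjusted p = 0.726). Blocked on the run it came to -0.16 ± 0.22. For SMAA/EYFP it was -0.20 ± 0.24, and -0.51 ± 0.22 when blocked on the run (limma adjusted p = 0.967).

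Markers of leukocytes were read beside these chains, and all 11 listed were above the filter. Each of the 11 was below wild type in SMGA/EGFP, by a median of -0.26, and 9 of 11 in SMAA/EYFP, by a median of -0.09, and 0 of them passed the threshold. With the run as a block 10 of 11 were lower in SMGA/EGFP, by a median of -0.16, and 11 of 11 in SMAA/EYFP, by a median of -0.22. Their mean deviation ran from -0.48 to 0.08 in SMGA/EGFP, from -0.07 to 0.08 in SMAA/EYFP and from -0.13 to 0.29 in wild type. Over the 12 arrays this leukocyte score correlated with Itgal at r = 0.78 and with Itgb2 at r = 0.76 (Spearman's rho 0.83 and 0.60, adjusted permutation p for r of 0.0799 and 0.0905 over 232 relations). The r of Itgb2 was 0.34 without the 2 arrays farthest from the median, so that relation rests on them. Within the first and second run r was 0.64 and 0.82 for Itgal and 0.85 and -0.20 for Itgb2. Itgb7 did not follow this score, at r = 0.16 and rho = -0.04 (adjusted permutation p = 0.860 for r). The laminin chains Lamb3 and Lama4 had r of -0.76 and 0.69 with the same score. Between Itgal and Itgb2 themselves r was 0.46, with 0.27 and 0.02 within the runs. Itgal ran more strongly against the score of neurons and Schwann cells, at r = -0.83 (adjusted permutation p = 0.0789). That r was -0.41 and -0.87 within the runs. Of 6 mast cell markers 3 were tested, and all 3 were below wild type in SMGA/EGFP, by a median of -0.39. Of these, 0 passed the threshold and 2 had an unadjusted limma p under 0.05, beside 6.92% of all probe sets. With the run as a block the median was -0.31 and 1 of the 3 had such a p, beside 2.99% of all. Their score ran from -0.37 to -0.10 in SMGA/EGFP, below all wild-type arrays at -0.08 to 0.27, and from -0.05 to 0.15 in SMAA/EYFP. Of all single probe sets, 2.72% had no overlap between SMGA/EGFP and wild type. The part of leukocyte and mast cell RNA in the Itgb2, Itgb7 and Itgal values was not tested.

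Itgb8 and Itgb6 are beta chains that pair with Itgav and are known for releasing active TGF-beta from its latent form. Itgb8 measured 10.42, 10.00 and 9.78 in SMGA/EGFP, 8.17, 10.34 and 9.13 in SMAA/EYFP, and had a lowest value of 8.74, a median of 9.20 and a highest of 9.67 in wild type. Every SMGA/EGFP array lay above every wild-type array, while SMAA/EYFP spanned both. Itgb8 was the only one of the 29 whose SMGA/EGFP and wild-type arrays did not overlap, and 2.72% of all probe sets had no overlap. The difference was 0.89 ± 0.36 (SE), 1.85-fold higher (limma adjusted p = 0.712), and 0.87 ± 0.27 within the first run (limma adjusted p = 0.9999). Blocked on the run, 2 of the 29 genes had an unadjusted limma p under 0.05, beside 2.99% of all probe sets. Both were lower in SMGA/EGFP, so Itgb8 was not among them. In SMAA/EYFP the difference from wild type was 0.03 ± 0.36, with a 95% interval from -0.73 to 0.80.

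Itgb6, a chain of epithelia, measured 7.72, 8.42 and 8.29 in SMGA/EGFP and 8.57, 8.16 and 8.90 in SMAA/EYFP. Wild type ran from 7.18 to 8.56 with a median of 7.60. The SMAA/EYFP arrays stood in the upper part of the wild-type range or above it, and only wild type 6 reached them. The difference between SMAA/EYFP and wild type was 0.79 ± 0.30 (SE), 1.73-fold higher (limma adjusted p = 0.991), and that of both transgenic groups together was 0.59 ± 0.24 (limma adjusted p = 0.996). In that joint comparison 1 of 29, Itgb6, had an unadjusted p under 0.05, beside 4.18% of all probe sets. With a mean of 8.05 over the 12 arrays and 7.75 in wild type, it was above the filter of 8.02 only through the transgenic arrays, and it fell under the filter in 4 of the 12 fits that leave out 1 array. The remaining beta chains, Itgb3, Itgb4 and Itgb5, had log2 differences from wild type of -0.27 to 0.10 for SMGA/EGFP and 0.06 to 0.29 for SMAA/EYFP. Itgb4, the hemidesmosome chain, differed most between the transgenic groups among these 3, by -0.56 ± 0.26 (limma adjusted p = 0.528).

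**Figure D2:**
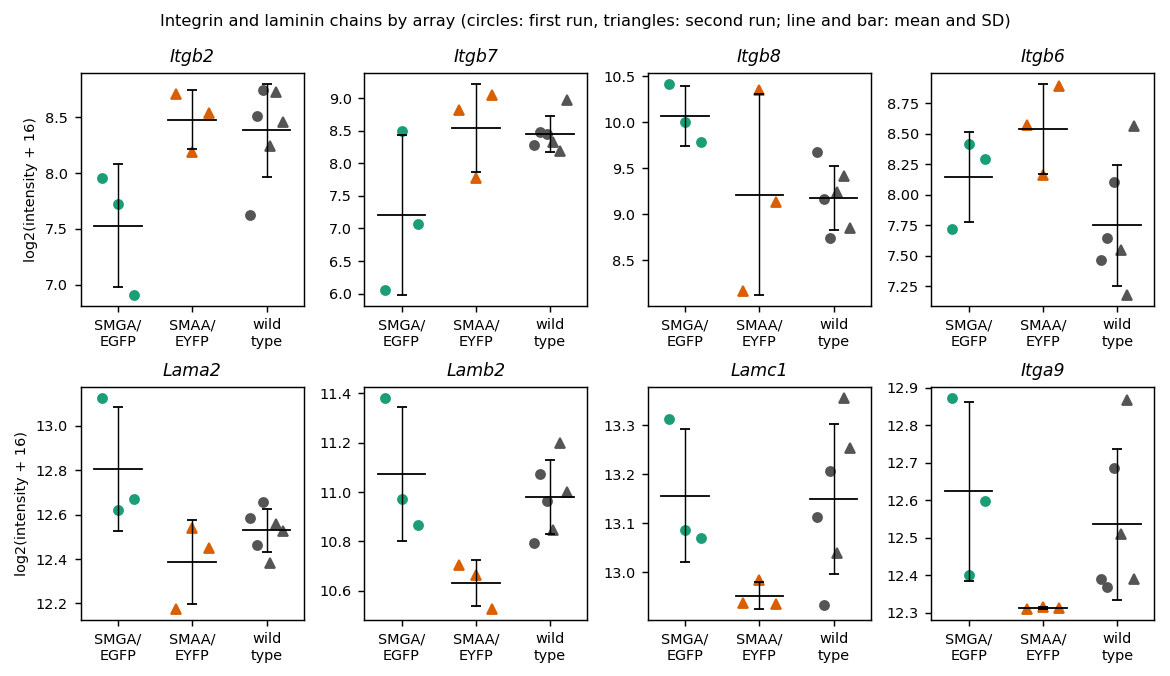
Level of 8 genes, log2(intensity + 16) on the vertical axis, in SMGA/EGFP (3 arrays), SMAA/EYFP (3) and wild type (6), with circles for the first run of record numbers, triangles for the second, and lines and bars for group mean and SD. The Itgb8 arrays of SMGA/EGFP lie above all wild-type arrays, and the Lamb2 and Itga9 arrays of SMAA/EYFP lie below all wild-type arrays.

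Among the alpha chains, Itga9, which binds tenascin and osteopontin, measured 12.87, 12.40 and 12.60 in SMGA/EGFP and 12.31 in each of the 3 SMAA/EYFP arrays. Wild type ran from 12.37 to 12.87 with a median of 12.45. All SMAA/EYFP arrays lay below the other 9 arrays. The difference between SMAA/EYFP and wild type was -0.22 ± 0.13 (SE) at a limma adjusted p of 0.991, and -0.65 with the mean of its probe sets. Itga4, which binds fibronectin and VCAM-1, measured 8.97, 8.47 and 9.23 in SMGA/EGFP and 9.09, 8.78 and 8.68 in SMAA/EYFP, with 8.71, 9.21 and 9.64 as the lowest, median and highest of wild type. The groups overlapped. Its log2 differences from wild type were -0.28 ± 0.21 for SMGA/EGFP and -0.32 ± 0.21 for SMAA/EYFP, with a limma adjusted p of 0.996 for both groups together. Itga4 had 3 further probe sets above the filter, and their correlations with the main one over the 12 arrays were 0.39, 0.03 and -0.04, so the pattern over arrays differed between its probe sets.

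The laminin receptors' alpha chains Itga3, Itga6 and Itga7 showed no group difference past the threshold. Itga6 measured 13.30, 13.21 and 13.52 in SMGA/EGFP and 13.63, 13.06 and 13.43 in SMAA/EYFP, and ran from 13.06 to 13.73 with a median of 13.32 in wild type. The groups overlapped throughout, with differences from wild type of -0.04 ± 0.15 and -0.01 ± 0.15 (SE). Its partner Itgb4 measured 9.50, 9.48 and 9.95 in SMGA/EGFP and 10.34, 9.68 and 10.60 in SMAA/EYFP, and 9.53, 9.89 and 10.29 at the lowest, median and highest in wild type. Itga3 differed from wild type by -0.16 ± 0.21 and 0.15 ± 0.21, and Itga7, a chain of muscle cells, by -0.04 ± 0.27 and 0.15 ± 0.27, for SMGA/EGFP first and SMAA/EYFP second.

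The collagen receptor chains Itga1 and Itga10 lay 0.03 and 0.20 log2 units under wild type in SMGA/EGFP, with differences of -0.03 ± 0.16 and -0.20 ± 0.26 (SE). In SMAA/EYFP their differences were -0.10 ± 0.16 and -0.14 ± 0.26. Of the RGD-binding chains, Itga5, the fibronectin receptor chain, differed by -0.08 ± 0.26 and -0.32 ± 0.26 in the same order. Itga8, the nephronectin receptor chain, differed by 0.13 ± 0.10 and 0.00 ± 0.10, and Itgav by 0.04 ± 0.08 and -0.01 ± 0.08. Itga2b, the chain of the platelet fibrinogen receptor, differed by -0.21 ± 0.15 and 0.10 ± 0.15. Its arrays did not overlap between SMGA/EGFP, at 8.85 to 9.15, and SMAA/EYFP, at 9.18 to 9.35, a difference of -0.31 ± 0.17 (limma adjusted p = 0.586).

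Lama2, the alpha chain of muscle and nerve laminins, measured 13.13, 12.62 and 12.67 in SMGA/EGFP and 12.17, 12.54 and 12.45 in SMAA/EYFP. Wild type ran from 12.38 to 12.66 with a median of 12.54. SMGA/EGFP 1 stood highest of all 12 arrays and SMAA/EYFP 1 lowest, and the transgenic groups did not overlap. Their difference was 0.42 ± 0.14 (SE), 1.34-fold, the smallest adjusted p among the 29 in that comparison (limma adjusted p = 0.421). Without SMGA/EGFP 1 the difference was 0.26, and under other processing settings it ran from 0.28 to 0.42. These groups lie in different runs. With the run as a block, 0 of 5 laminin alpha chains had an unadjusted limma p under 0.05 between them, beside 2.7% of all probe sets. The same count in SMGA/EGFP against wild type was 0 of 5, beside 2.99%. Without the block it was 1 of 5 in each comparison. SMGA/EGFP differed from wild type by 0.28 ± 0.12 (limma adjusted p = 0.718; 0.12 without SMGA/EGFP 1), and SMAA/EYFP by -0.14 ± 0.12 (limma adjusted p = 0.993).

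Lamb2, the beta chain that replaces Lamb1 at neuromuscular and vascular basement membranes, measured 11.38, 10.97 and 10.87 in SMGA/EGFP and 10.70, 10.66 and 10.53 in SMAA/EYFP. Wild type had a lowest value of 10.79, a median of 10.98 and a highest of 11.20. The SMAA/EYFP arrays lay below all 9 others, while SMGA/EGFP and wild type overlapped. The difference between SMAA/EYFP and wild type was -0.35 ± 0.13 (SE), 1.27-fold lower (limma adjusted p = 0.991), and -0.38 ± 0.13 within the second run. Lamb2 and Itga9 were the 2 of 29 without overlap in this comparison, beside 2.99% of all probe sets.

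Lamc1, the gamma chain of most laminins, measured 13.31, 13.09 and 13.07 in SMGA/EGFP and 12.94, 12.98 and 12.93 in SMAA/EYFP. Wild type ran from 12.93 to 13.36 with a median of 13.16. The SMAA/EYFP arrays lay at the lower end of the wild-type range. The difference from wild type was -0.20 ± 0.10 (SE) in SMAA/EYFP (limma adjusted p = 0.991) and 0.01 ± 0.10 in SMGA/EGFP. The second Lamc1 probe set above the filter did not follow the main one, with r = -0.03 over the 12 arrays. Lamb1, the usual partner of Lamc1, had log2 differences from wild type of -0.14 ± 0.09 for SMGA/EGFP and -0.10 ± 0.09 for SMAA/EYFP.

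Lama3 and Lamb3 are chains of the laminin that anchors epithelium at hemidesmosomes. Lama3 measured 11.04, 11.39 and 11.56 in SMGA/EGFP and 11.49, 11.33 and 11.66 in SMAA/EYFP, with 10.82, 11.36 and 11.44 as the lowest, median and highest of wild type. Lamb3 measured 9.56, 10.27 and 10.18 in SMGA/EGFP and 9.82, 9.61 and 10.22 in SMAA/EYFP, with 9.06, 9.65 and 10.38 in wild type. For both genes the groups overlapped and each group held high and low arrays. The differences from wild type were 0.11 ± 0.16 and 0.37 ± 0.25 (SE) in SMGA/EGFP and 0.27 ± 0.16 and 0.25 ± 0.25 in SMAA/EYFP, for Lama3 and Lamb3 in turn. Of the other laminin alpha chains, Lama1, a chain of early epithelia, differed from wild type by 0.02 ± 0.23 and -0.15 ± 0.23. Lama4, a chain of vessels and muscle, measured 13.41, 12.76 and 12.82 in SMGA/EGFP and 12.79, 12.91 and 12.91 in SMAA/EYFP, with 12.56, 13.17 and 13.46 in wild type, so that the groups overlapped. It differed by -0.07 ± 0.18 and -0.20 ± 0.18, the latter -0.39 ± 0.18 with the run as a block (limma adjusted p = 0.967), and Lama5, a broadly used epithelial and vascular chain, by 0.22 ± 0.13 and 0.03 ± 0.13.

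**Figure D3:**
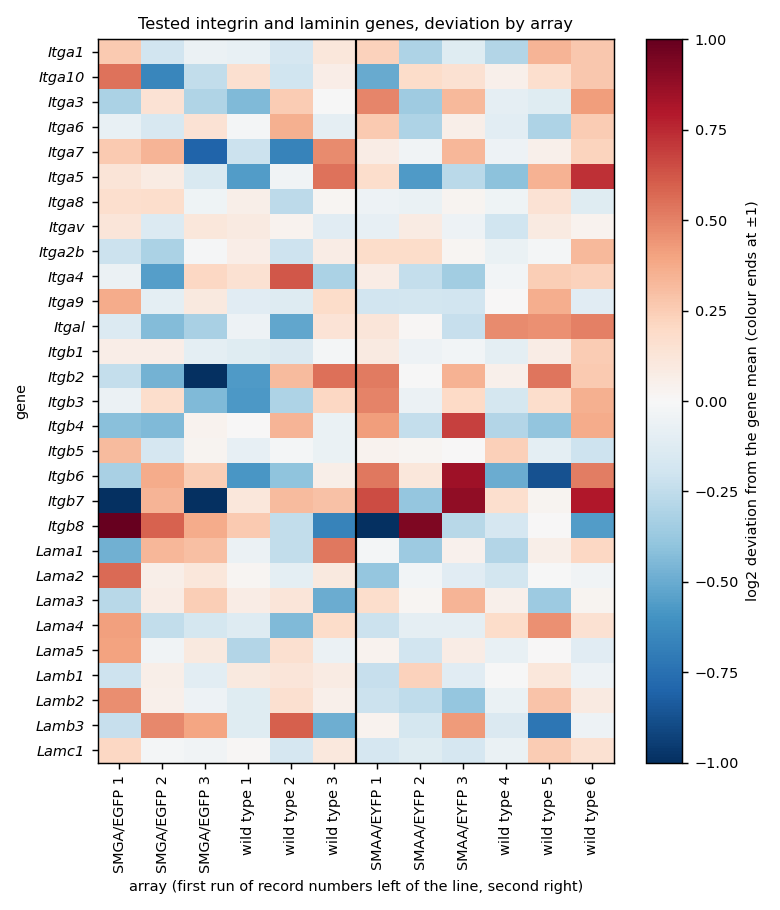
Deviation of each tested gene (rows) from its mean over the 12 arrays (columns), in log2 units on a colour scale ending at 1 either way, with the first run of record numbers left of the line and the second right. The strongest colours are in the rows of Itgb7, Itgb8, Itgb2 and Itgb6, the genes of largest SD, while Itgav and Itgb1 are pale throughout.

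Wild type alone was compared between the runs, as these arrays carry no transgene. None of the 29 passed, as did 0 of all probe sets (0%), and 2 of 29 had an unadjusted p under 0.05 beside 8.15% of all. Itgal measured 8.13, 7.66 and 8.32 on the wild-type arrays of the first run against 8.65, 8.64 and 8.69 on those of the second, with no overlap. The difference was 0.62 ± 0.22 (SE) at a limma adjusted p of 0.511, and 13.5% of all probe sets had no overlap between these arrays. All SMGA/EGFP arrays belong to the first run, where wild-type Itgal was the lower of both runs. Lama4 measured 12.87, 12.56 and 13.19 against 13.18, 13.46 and 13.15, which overlap. It differed by 0.39 ± 0.18 (limma adjusted p = 0.612), but by 0.05 with the mean of its probe sets. Itgb1 differed by 0.17 ± 0.09 (limma adjusted p = 0.641) and Itgb3, the partner of Itgav in the vitronectin receptor, by 0.34 ± 0.22 (limma adjusted p = 0.698). Itgb3 measured 12.23, 12.49 and 13.01 in the first run and 12.62, 12.98 and 13.16 in the second, again with overlap, beside 12.74, 12.98 and 12.36 in SMGA/EGFP and 13.30, 12.74 and 13.00 in SMAA/EYFP. The 7 tested markers of neurons and Schwann cells were all lower in the second run, by a median of -1.25.

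Chains that form 1 protein were then compared over the 12 arrays. Of 27 textbook pairs, 22 had both chains tested. The correlation was above 0 for 13 of the 22 and ran from -0.59 to 0.81 with a median of 0.18. For 5 pairs Pearson's r passed a Benjamini-Hochberg threshold of 0.05 over the 22 (two-sided permutation tests, 100000 resamples). Lama3 and Lamb3 had r = 0.81 (adjusted permutation p = 0.0240) and rho = 0.87 (adjusted permutation p = 0.0108). Itga6 and Itgb4, the hemidesmosome integrin, had r = 0.77 (adjusted permutation p = 0.0240) and rho = 0.78 (adjusted permutation p = 0.0483). These were the 2 pairs that passed by rho.

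The other pairs passing by r were Lamb2 with Lamc1, at r = 0.76 and rho = 0.62, Itga5 with Itgb1, at 0.75 and 0.75, and Itga1 with Itgb1, at 0.70 and 0.66. Their adjusted permutation p was 0.0240, 0.0240 and 0.0463 for r and 0.140, 0.0507 and 0.131 for rho. Within the first and second run, r was 0.85 and 0.99 for Lama3 and Lamb3, 0.87 and 0.82 for Itga6 and Itgb4, 0.50 and 0.96 for Lamb2 and Lamc1, 0.54 and 0.95 for Itga5 and Itgb1, and 0.45 and 0.84 for Itga1 and Itgb1. All 5 kept their sign in both runs, and 10 of the 22 pairs had opposite signs. The 5 were chosen by r over these same 12 arrays, so their signs within the runs are no separate check. The unadjusted permutation p within the first run was 0.0125, 0.0236, 0.319, 0.293 and 0.357 in the same order. Within the second run it was 0.00417, 0.0819, 0.00417, 0.00833 and 0.0556. Without the 2 arrays farthest from the median of the first gene, r was 0.64, 0.71, 0.64, 0.64 and 0.59 in the same order and 0 of 22 passed with these 10 arrays. The SMAA/EYFP arrays lie together at the low end of Lamb2 and Lamc1, and the r of this pair was 0.59 with the means of each group and run removed. The second Lamc1 probe set above the filter had r = -0.03 with the one used here. Among pairs that did not pass, Lamb1 and Lamc1 had r = -0.001, with -0.62 and 0.34 within the runs. Lama5 and Lamb1 had the lowest r, -0.59. With each gene as the mean of all its probe sets, 0 of 22 passed as well, and r for Lama3 and Lamb3 was 0.35. Lama3 has a second probe set under the filter, at a mean of 6.37, which enters that mean. Itga5, Itga1 and Itgb1 also rose with the score of the smooth muscle markers, at r = 0.80, 0.79 and 0.72. The adjusted permutation p was 0.0799, 0.0905 and 0.114 over 232 relations, none past the threshold. The part of smooth muscle RNA in these pairs was not tested.

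**Figure D4:**
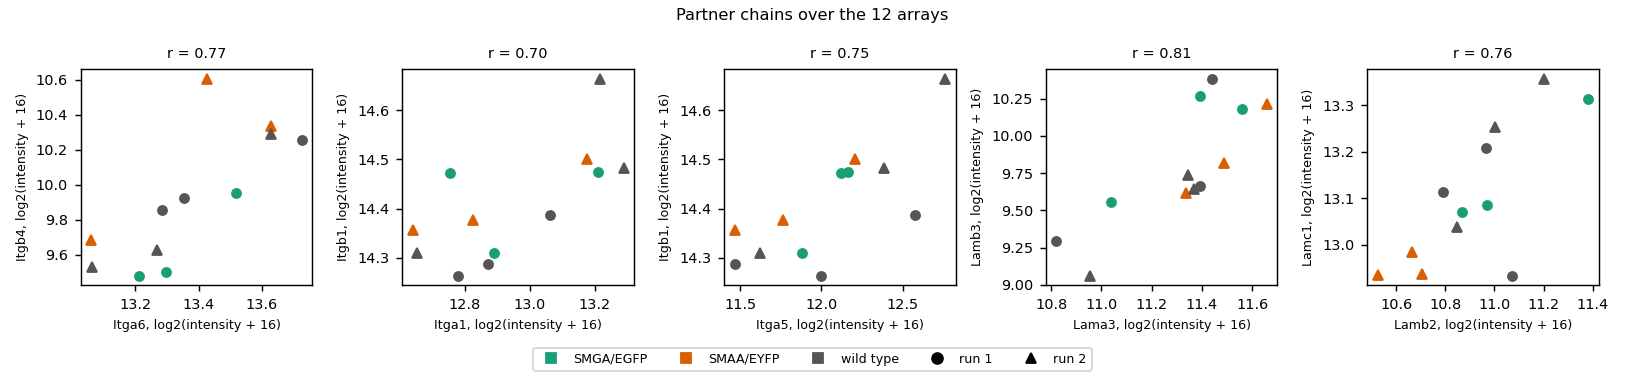
Levels of the 5 partner pairs whose Pearson's r passed the threshold, each axis in log2(intensity + 16), with 1 point per array, colour for group and shape for run of record numbers. The values of r run from 0.70 to 0.81, and for Lamb2 and Lamc1 the SMAA/EYFP points lie together at the low end.

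The stretches of 250 bases before the start of Itgb1, Itga5 and Itga1 are shown because these genes make up the 2 passing pairs for which both chains have an entry in the RefSeq promoter table (GRCm38.p6). Capitals mark GGGCGG or its reverse complement CCGCCC, the core letters bound by Sp1-type factors.
Itgb1, chr8:128685404-128685653, plus strand: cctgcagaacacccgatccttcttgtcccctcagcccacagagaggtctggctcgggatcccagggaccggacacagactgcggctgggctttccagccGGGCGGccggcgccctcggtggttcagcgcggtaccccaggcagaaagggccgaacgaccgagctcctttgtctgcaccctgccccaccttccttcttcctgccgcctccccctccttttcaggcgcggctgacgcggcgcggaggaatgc
Itga5, chr15:103366792-103367041, minus strand: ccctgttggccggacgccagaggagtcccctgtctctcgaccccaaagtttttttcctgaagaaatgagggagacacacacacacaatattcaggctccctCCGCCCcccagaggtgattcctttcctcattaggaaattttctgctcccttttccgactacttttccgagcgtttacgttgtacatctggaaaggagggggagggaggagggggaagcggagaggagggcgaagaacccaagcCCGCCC
Itga1, chr13:115101965-115102214, minus strand: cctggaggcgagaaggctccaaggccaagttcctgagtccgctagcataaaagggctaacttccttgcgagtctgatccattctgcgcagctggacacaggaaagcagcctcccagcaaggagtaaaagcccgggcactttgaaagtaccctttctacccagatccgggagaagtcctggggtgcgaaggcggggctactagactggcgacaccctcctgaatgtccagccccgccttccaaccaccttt

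In these stretches Itgb1 has 1 match, beginning 151 bases before the start, Itga5 has 2, at 149 and 6 bases, and Itga1 has none. The table holds 25 promoters of 22 of the 34 genes, and 9 of these 25 (36.0%) carry the motif on either strand, beside 32.7% of the 32851 promoters of the table. GGGCGG was 1 of 14 motifs searched on both strands after the values were known, and no motif was tested. The other motifs began with the AP-1 site TGANTCA. The scan also took the Ets core GAGGAA and the letters CACGTG of the E-box. A GATA site was searched as AGATAA, and the Runx core as TGTGGT and as the longer TGTGGTTT that holds it. The GT box was searched as GGGTGTGG. Letters of p53-type sites were searched as ACATGT and also as CATGTC, which can overlap it. The rest were the TATA box and 3 CArG box variants of 10 letters. For the TATA box, TATAAA was in 0 of the 25, beside 12.4% of all. GAGGAA stood in 12 of 25 (48.0%), beside 23.3% of all. The remaining 11 were in 0 to 2 of the 25.

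Of the laminin chains, 3 had a correlation with the urothelial markers over the arrays that passed adjustment. After these values had been seen, each of the 29 genes was set against the scores of 8 marker lists, 232 relations in all, of which 49 had an unadjusted permutation p under 0.05 and 3 passed after adjustment. Lamb3 followed the urothelium score at r = 0.87 and Lama3 at r = 0.85, while Lamc1 ran against it at r = -0.87 (adjusted permutation p = 0.0325 for each). Spearman's rho was 0.78, 0.83 and -0.83, and 0 relations passed by rho (adjusted permutation p = 0.119, 0.0893 and 0.0893). Within the first and second run r was 0.98 and 0.84 for Lamb3, 0.91 and 0.89 for Lama3, and -0.79 and -0.93 for Lamc1. Without the 2 arrays farthest from the median score, r was 0.71, 0.72 and -0.81. Lama4 and Itga1 also ran against the urothelium score, at r = -0.79 and -0.76 (adjusted permutation p = 0.0799 and 0.0905). Nor was Lamb3 tied to this list alone. Its r was -0.81 with fibroblasts, -0.76 with leukocytes and -0.69 with endothelium (adjusted permutation p = 0.0799, 0.0851 and 0.148).

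The Lamc1 relation depended on the scale and the probe set. It was -0.29 with arrays centred on their median in place of quantile normalization, and -0.25 with the mean of its probe sets. Lama3 did not pass with the mean of its probe sets, at r = 0.21 (adjusted permutation p = 0.771), where its dim second probe set enters. Lamb3, with 1 probe set, had r = 0.77 with centred arrays (adjusted permutation p = 0.0615) and 0.83 with the lists' genes as means of their probe sets (adjusted permutation p = 0.0916). All 14 urothelial markers were above wild type in SMAA/EYFP, by a median of 0.23, and 13 of 14 in SMGA/EGFP, by a median of 0.18, with 0 past the threshold in either. With the run as a block the medians were 0.30 and 0.07, and 11 of 14 were above wild type in SMGA/EGFP. The score ran from 0.04 to 0.23 in SMAA/EYFP, from -0.15 to 0.19 in SMGA/EGFP and from -0.41 to 0.16 in wild type. The part of urothelial RNA in the group values of Lama3, Lamb3, Lamc1, Itgb4 and Itgb6 was not tested.

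**Figure D5:**
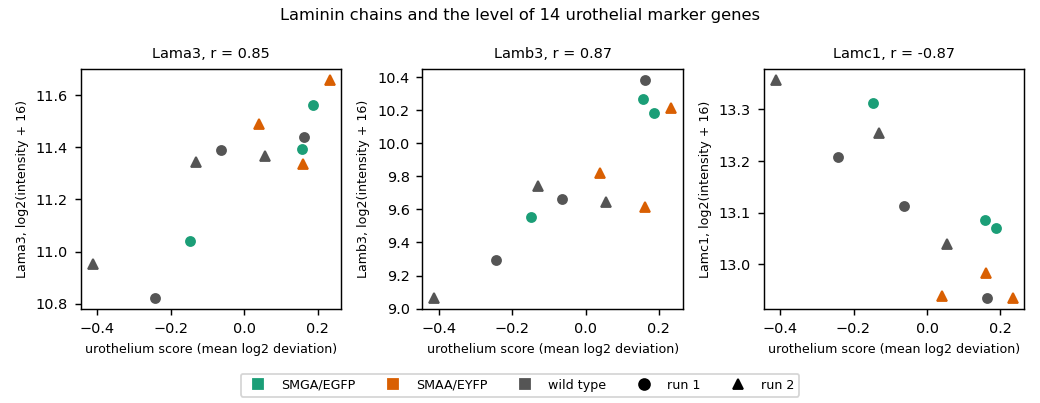
Level of Lama3, Lamb3 and Lamc1, log2(intensity + 16) on the vertical axis, against the mean log2 deviation of 14 urothelial markers on the horizontal axis, with 1 point per array, colour for group and shape for run of record numbers. Lama3 and Lamb3 are higher and Lamc1 is lower on arrays with a higher score, with r of 0.85, 0.87 and -0.87.

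The proteins that tie integrins to actin and to the cell's signalling were taken as a list of 33 genes, of which 30 were tested. None passed the threshold in any of the 5 comparisons, and the smallest adjusted p of the list was 0.476. Their median difference from wild type came to -0.02 for SMGA/EGFP and -0.06 for SMAA/EYFP, beside -0.01 and 0.00 over all probe sets. Of smallest p in SMGA/EGFP were Zyx, a focal adhesion protein, at 0.35 ± 0.14 (SE), Lims1, a partner of integrin-linked kinase, at -0.34 ± 0.15, Vasp, an actin filament elongation factor, at -0.26 ± 0.13, and Fermt2, a kindlin, at -0.16 ± 0.09. In SMAA/EYFP they were Parvb at -0.52 ± 0.21, Dst at -0.22 ± 0.10, Vcl at -0.12 ± 0.06 and Cd9 at 0.13 ± 0.06. Between the transgenic groups they were Dst, the plakin of hemidesmosomes, at 0.31 ± 0.12, Tns3 at -0.27 ± 0.12, Zyx at 0.33 ± 0.16 and Parvb at 0.39 ± 0.24. In both groups together they were Cd9, Vasp, Parvb and Lims1, at -0.33 to 0.11. Between the wild-type runs they were Tgfb1i1, Tln1, Ilk and Fermt3, at 0.28 to 0.42.

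Basement membrane partners of laminin and other integrin ligands were a list of 35 genes, of which 31 were tested and 0 passed in any comparison, with a smallest adjusted p of 0.454. Of smallest p in SMGA/EGFP were Smoc1, a calcium-binding basement membrane protein, at 0.75 ± 0.19 (SE), Icam2, an endothelial ligand of leukocyte integrins, at -0.94 ± 0.29, Dag1, the laminin receptor dystroglycan, at 0.22 ± 0.08, and Nid2, a nidogen that links laminin to collagen IV, at -0.30 ± 0.15. Of 10 endothelial markers, 9 were below wild type in SMGA/EGFP, by a median of -0.20, and 10 of 10 in SMAA/EYFP, by a median of -0.28. The part of vessel RNA in the Icam2 value was not tested. In SMAA/EYFP the genes of smallest p were Col4a4 at 0.48 ± 0.18, Nid2 at -0.39 ± 0.15, Frem1 at -0.38 ± 0.16 and Smoc2 at -0.29 ± 0.13. Between the transgenic groups they were Smoc2 at 0.43 ± 0.15, Col4a6 at 0.50 ± 0.21, Col4a4 at -0.49 ± 0.21 and Hspg2, perlecan, at 0.39 ± 0.18. In both groups together they were Smoc1 at 0.53 ± 0.16, Icam2 at -0.71 ± 0.23, Nid2 at -0.35 ± 0.12 and Dag1 at 0.16 ± 0.06. Between the wild-type runs Agrn, Npnt, Bcam and Thbs1 differed by -0.78 to -0.47.

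Mesothelial genes were the one marker list with members past the threshold between groups. The list holds 7 markers of the mesothelium, the lining on the organ's outer surface. Krt19 is on it and also among the 14 urothelial markers. In SMGA/EGFP, 3 of the 7 were called lower than in wild type and 4 lower than in SMAA/EYFP. Over all probe sets 0.0622% and 0.0799% passed, in either direction. With the run as a block the counts were 2 and 0, beside 0.0444% and 0.00888% of all probe sets. The smallest limma adjusted p was 0.196 for the latter. The score of the 7 markers ran from -1.24 to -0.97 in SMGA/EGFP, from 0.40 to 1.05 in SMAA/EYFP and from -0.13 to 0.60 in wild type. Lama2 ran against this score at r = -0.70 (rho = -0.71, adjusted permutation p = 0.0943 for r over the 232 relations), with r of -0.61 within the first run but 0.01 within the second. The part of mesothelial RNA in the Lama2 and Itgb8 values was not tested. Smooth muscle markers, 11 in number, had 0 past the threshold, and their median difference was -0.02 in both transgenic groups. Blocked on the run, SMGA/EGFP had a median of 0.02 and SMAA/EYFP one of -0.07, with 11 of 11 lower in the latter, and all 11 were higher in the second wild-type run, by a median of 0.17.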

How the data were processed

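The authors deposited 1 linear intensity for each probe set and array, computed with GCOS per the submitters' processing notes, with no version given. On every array the mean between the 2nd and 98th percentile was 1500.01, a common scale. No step beyond that is given in the sources used here. From the 45101 probe sets, values were converted to log2(intensity + 16), quantile-normalized, and the 64 controls then left out. The 22518 probe sets above the median mean entered limma 3.58.1 under R 4.3.3 (lmFit, eBayes with trend, two-sided tests), all 12 arrays in 1 fit, with Benjamini-Hochberg adjustment and a threshold of 0.05. Errors are limma's SE. The number of arrays limits the precision. The fit was tested on simulated arrays.

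Symbols are those of GEO's annotation of the platform, and 34 of 34 members matched RefSeq. The members, lists, pairs and tests were chosen with earlier results of these data known. Genes given with their levels by array were those of the 4 smallest p per comparison, the 4 of largest SD, Itgb1 and the hemidesmosome chains. The score of a list on an array averages the log2 deviations of its tested genes from their means. Alternatives were deposited or median-centred values, pseudocounts of 1 and 64, no filter or one at the 75th percentile, eBayes without trend, only the groups compared, a block for the record-number run or each run alone, the mean over a gene's probe sets, and leaving out each array.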

Additional observations from a re-analysis of the deposited data

Results flagged for a closer look

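In the 6 wild-type arrays, 3 of the 34 genes had 1 array apart from the rest by Dixon's test, which compares the gap to the nearest array with the whole range. Chance flags about 1 in 20 groups. Itgam, the alpha chain of a macrophage and neutrophil integrin, was at 5.31 in wild type 5, against 6.41 in the nearest array and 6.94 in the farthest, a share of 0.676. Itgax, a dendritic cell alpha chain, was at 4.71 in wild type 6, against 6.31 to 7.20 in the others, a share of 0.644. Both genes lie below the filter on mean level and entered no test. Itgb7 was at 8.97 in wild type 6, against 8.19 to 8.48 in the others, a share of 0.633.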

How the results depend on the processing

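No integrin or laminin gene passed the threshold in any of the 5 group or run comparisons under the alternatives run, including leaving out each of the 12 arrays, where the counts ran from 0 to 0. The lowest adjusted p of a member in any such fit was 0.134. No named log2 difference changed sign. Over the whole table, the 14 probe sets of SMGA/EGFP against wild type became 1 to 16 under other settings and 6 to 20 without single arrays. The 18 of SMGA/EGFP against SMAA/EYFP became 2 to 24 and 4 to 22, and the 0 of SMAA/EYFP against wild type became 5 with median-centred arrays. The 1 of both transgenic groups became 0 with median-centred arrays and with the mean over probe sets. Between the wild-type runs the 0 became 429 without wild type 3 and 1 with no filter.

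The count of 5 partner pairs was 0 with the mean over all probe sets of a gene and 0 without the 2 farthest arrays. It was 4 with values as deposited and 5 under the other scalings and pseudocounts, but not always with the same pairs. Lamb2 with Lamc1 fell short of the threshold in 4 settings, and each other pair of the 5 in 2. The cause was not tested beyond what these settings change. The 3 relations to marker lists, an analysis added after seeing the data, became 5 with values as deposited, 12 with median-centred arrays and 1 with the mean over probe sets. No paired analysis was possible because the replicate numbers follow accession order and pair no samples. With 3 arrays in a transgenic group, the standard errors of the members' differences from wild type ran from 0.08 to 0.42, and the low signals of Itgam and Itgax kept them out of the tests.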
